A study of Homo sapiens with 32 samples.

Results

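The comparison described here is that of hypoxic MCF10A cells with and without the mTOR inhibitor PP242, in total mRNA and in polysome-bound mRNA. It rests on 8 of the 32 RNA-Seq libraries of the study: the 2 libraries of hypoxia plus PP242 (HPP) and the 2 of hypoxia alone (H) in total mRNA (T), and the same 2 against 2 in polysomal mRNA (P). The sample titles give the total and the polysomal library of a replicate the same culture number, and the Te test treats them as independent. MCF10A is an immortalised, non-tumourigenic line of human breast epithelial cells, grown in a medium with serum, epidermal growth factor, hydrocortisone, cholera toxin and insulin, and it stands here as a single cell line. H cells were kept at 0.5% O2 for 24 hours. HPP cells had the same 24 hours at 0.5% O2 and received 2.5 µM PP242 for 3 hours. Both groups therefore share the hypoxia, and only the drug separates them. Per the study's methods, cells without the drug received an equal amount of its solvent, DMSO. The other groups drawn on for comparison are MCF10A cells in normoxia without (N) and with PP242 (NPP) and the H and HPP cells of MDA-MB-231, a triple-negative breast cancer line, with 2 libraries per group and fraction.

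PP242 blocks the kinase site of mTOR and so acts on both of its complexes, mTORC1 and mTORC2. mTORC1 senses amino acids and growth factors on the lysosome and drives protein synthesis through S6 kinase and through the 4E-BP proteins, which, when not phosphorylated, hold back the cap-binding protein eIF4E. The mRNAs most dependent on this arm begin with a C at the cap followed by a run of pyrimidines, the 5′ terminal oligopyrimidine (TOP) motif, and encode the ribosomal proteins and many translation factors. mTORC2 activates AKT, which keeps the FOXO transcription factors out of the nucleus. A polysome profile separates mRNAs that carry several ribosomes from the rest, so that a lower polysomal level at an unchanged total level stands for fewer ribosome-bound copies of that mRNA.

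Starts of some of the TOP mRNAs whose polysomal level is described below are shown first, with those of 3 genes that changed in total mRNA for contrast. They are chosen examples, and their make-up says nothing on how common the motif is. Each sequence has 30 bases, from 5 bases before a RefSeq transcription start (GRCh38.p14) to 25 bases into the transcript, on the strand of the gene. Capitals mark the longest run of at least 5 pyrimidines that begins with C within 5 bases of the start. For NPM1, with 2 RefSeq starts, the start with the longest run is shown. YBX1, a listed TOP mRNA described below but not shown, had no such run.
RPL12, chromosome 9, 127451382 to 127451411, minus strand: tccggCCTCTCggctttcggctcggaggag
RPL26, chromosome 17, 8383169 to 8383198, minus strand: tagttCTCTTCCCTTTTgcggccatcaccg
RPL21, chromosome 13, 27251553 to 27251582, plus strand: tCTTTCCTTTCggccggaaccgccatcttc
RPS6, chromosome 9, 19380212 to 19380241, minus strand: tggCCCTCTTTTCCgtggcgcctcggaggc
RPS3, chromosome 11, 75399513 to 75399542, plus strand: caCTTCCTTTCCTTTCagcggagcgcggcg
EEF1A1, chromosome 6, 73521008 to 73521037, minus strand: acgttCTTTTTCgcaacgggtttgccgcca
EEF2, chromosome 19, 3985439 to 3985468, minus strand: gcgttCTCTTCCgccgtcgtcgccgccatc
TPT1, chromosome 13, 45341159 to 45341188, minus strand: tcggCCTTTTCCgcccgctcccccctcccc
NPM1, chromosome 5, 171387844 to 171387873, plus strand: gcgtCCTTTCCCTggtgtgattccgtcctg
RPL22L1, chromosome 3, 170870171 to 170870200, minus strand: gCTTCCTCTCTgctctcgcggccgactcgc
AREG, chromosome 4, 74445131 to 74445160, plus strand: cctacagacgttcgcacacctgggtgccag
ID2, chromosome 2, 8682051 to 8682080, plus strand: gcttcattctgagccgagcccggtgccaag
SMAD6, chromosome 15, 66702231 to 66702260, plus strand: ctggcatatgatgggaggcagccaatgact
The last 3 hold no such run. Among the 13124 genes tested, 10530 (80.2%) had a start in the RefSeq promoter table, and 29.4% of these had a TOP-like start by this letter rule, so that the rule alone marks many genes outside the TOP class. Of the large-subunit ribosomal protein genes, 38 of 47 (80.9%) had an entry, and 33 of the 38 (86.8%) had a TOP-like start. Of the 174 genes that rose in T, 144 (82.8%) had an entry, and 49 of the 144 (34.0%) had a TOP-like start. The share was void for the small-subunit genes, the other TOP mRNAs and the genes with lower Te, since fewer than 80% of each had an entry.

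The 8 libraries held between 30302497 and 43662665 counts, of which 97.4% to 99.2% fell on protein-coding genes. Keratins of basal epithelium were high over the 8 libraries. KRT5 lay between 1640 and 3270 CPM (counts scaled to a common library size and composition) and KRT14 between 1670 and 4200. The T cell gene CD3E and the endothelial gene CDH5 were at 0 in all 8. The endothelial markers PECAM1 (0.649 to 1.81 CPM) and KDR (0.221 to 2.39 CPM) were detected in each. Of the luminal markers PGR was at 0 in all 8, and ESR1, FOXA1, KRT19 and EPCAM reached at most 0.494 CPM. The luminal markers KRT8 (87.4 to 217 CPM), KRT18 (60.4 to 265 CPM) and GATA3 (5.44 to 7.94 CPM) were expressed. So were the leukocyte markers CD68 (59.0 to 140 CPM) and CD14 (2.78 to 11.9 CPM). VIM, which cultured epithelial cells also express, lay between 2040 and 9370 CPM and the stromal gene DCN between 70.8 and 238 CPM. TP63, which defines basal cells in tissue, was close to 0 (at most 0.226 CPM). Libraries of one group did not match each other closely. The second libraries of both groups in T, and the first of both in P, were richer in short mRNAs than their partners: the rank correlation of a library's deviation from the gene means with transcript length was 0.305 and -0.0597 in H_T, 0.205 and -0.265 in HPP_T, -0.304 and 0.233 in H_P, and 0.0759 and 0.193 in HPP_P. Ribosomal protein mRNAs, which are short, followed that pattern. The part of this difference in the results was not tested beyond an alternative with a length offset, given in the closing section. Ribosomal protein mRNAs took 8.26% and 10.6% of the counts in the H_T libraries and 9.35% and 12.8% in HPP_T, where the groups overlapped. In polysomes they took 9.28% and 5.57% in H_P and 2.75% and 1.45% in HPP_P, so that both HPP libraries lay below both H libraries.

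In total mRNA, 491 of 13124 genes (3.74%) changed with PP242 in hypoxia by edgeR's quasi-likelihood test at a Benjamini-Hochberg adjusted p under 0.05. Of these, 174 (1.33%) rose and 317 (2.42%) fell. In polysomal mRNA 853 genes (6.5%) changed, 345 (2.63%) upwards and 508 (3.87%) downwards. Scaling by library totals only, without TMM, turned this split to 435 upwards and 397 downwards, and shifted the median log2FC of all genes to -0.156 in T and 0.165 in P. Called genes had changed by a median of 1.57 log2 units in T and 1.50 in P, either direction counted. The layers shared 413 genes, which is 84.1% of the T calls and 48.4% of the P calls, and all 413 moved in the same direction. For the change in translational efficiency (Te, the log2FC in P minus that in T, tested as an interaction) 0 genes (0%) passed by edgeR. At an unadjusted p under 0.05 there were 272, of which 248 had lower and 24 higher Te, and DESeq2 called 93, all with lower Te, with no adjusted p for 11195 genes that it set aside. With 2 libraries per group an exact permutation test of a single gene cannot go below p = 0.333, so the calls rest on a spread pooled over the 16 MCF10A libraries, and with only the libraries compared in the fit 0 genes were called in T and 38 in P. In bulk libraries less mRNA per cell and fewer cells with the mRNA cannot be told apart, and CPM values are shares of a library, which do not show how much mRNA was on polysomes in all.

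**Figure D1:**
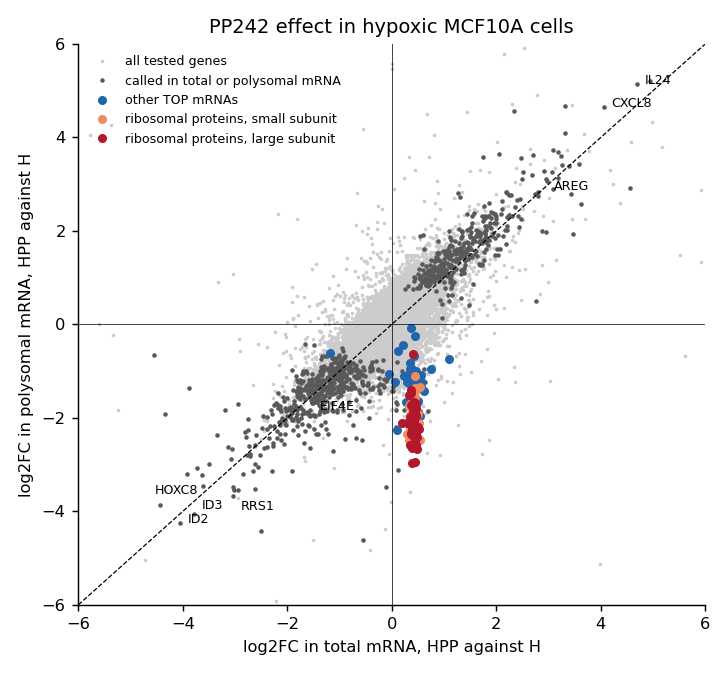
Each point is a gene, with the log2FC of HPP against H in total mRNA on the x axis and in polysomal mRNA on the y axis. Dark points were called in either layer, coloured points are TOP mRNAs, the dashed line marks equal change, and 22 genes beyond 6 on either axis are outside the frame. Called genes lie along the diagonal, and most TOP mRNAs lie below it, with a log2FC in T near 0.4 and a negative log2FC in P.

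Ribosomal protein mRNAs were lower on polysomes with PP242, and none was called in total mRNA. All 47 large-subunit ribosomal protein mRNAs had a log2FC below 0 in P, with a median of -2.20, and 27 of them passed the test. All 32 small-subunit mRNAs were also below 0 in P, with a median of -2.13, and 16 passed, beside 3.87% of all tested genes that fell in P. The medians over all tested genes were -0.011 in P and -0.003 in T. In T the same lists had medians of 0.42 and 0.42, with 0 of 47 and 0 of 32 genes called, and these medians turned to -0.047 and -0.086 without the second HPP_T library and reached 0.772 and 0.791 without the second H_T library. The median Te difference was -2.60 for the large and -2.53 for the small subunit, against 0.09 over all genes, with 0 genes called by edgeR. DESeq2 called 34 of the large-subunit and 22 of the small-subunit genes in Te. An edgeR fit with a length offset and the replicate number as a block within each fraction called 39 and 22. That fit was chosen after seeing the data.

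RPL12, a protein of the ribosomal stalk base, had 1016 and 495 CPM in H_P and 141 and 56.2 CPM in HPP_P. In T it had 945 and 1414 CPM in H and 1133 and 2070 CPM in HPP. The polysomal groups were well apart and the total groups overlapped, with log2FC of -2.94 ± 0.66 (SE, n = 2 libraries per group; edgeR adjusted p = 0.0232) in P and 0.44 ± 0.61 (adjusted p = 0.829) in T. RPL26, a 60S protein near the exit tunnel, went from 1814 and 1054 CPM to 287 and 169 CPM in polysomes (log2FC -2.65 ± 0.53, edgeR adjusted p = 0.0148). RPL21 went from 1096 and 616 CPM to 185 and 100 CPM there (log2FC -2.58 ± 0.50, edgeR adjusted p = 0.0132). RPS15A had the largest fall of the small subunit, from 1016 and 450 CPM to 164 and 79.2 CPM (log2FC -2.59 ± 0.60, edgeR adjusted p = 0.0273). RPS6, the S6 kinase substrate, went from 1977 and 1100 CPM to 537 and 264 CPM (log2FC -1.94 ± 0.51, edgeR adjusted p = 0.0453). RPS3 and RPL11 had falls of the same size that missed the threshold (RPS3 log2FC -1.93 ± 0.53, edgeR adjusted p = 0.0546; RPL11 log2FC -1.94 ± 0.54, edgeR adjusted p = 0.0538). In each of these genes both HPP_P libraries lay below both H_P libraries, a separation seen in one direction or the other in 52.9% of all tested genes in P and 42.8% in T.

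The ribosomal protein paralogue RPL22L1, which is not in the list, fell by more than any member of it, from 394 and 142 CPM in H_P to 31.1 and 16.9 CPM in HPP_P (log2FC -3.48 ± 0.59, edgeR adjusted p = 0.00725), at 164 and 195 CPM in H_T and 151 and 180 CPM in HPP_T. The spread between the libraries of a group was wide for all these short mRNAs, and the number of calls depended on the libraries fitted. RPL32 had the largest fall within the list (log2FC -2.97 ± 0.63, edgeR adjusted p = 0.0182). Without the first H_P library, or without the second HPP_P library, 0 of the 79 ribosomal protein genes passed in P, although the medians stayed at -1.52 or below for the large and at -1.53 or below for the small subunit in the 4 fits that each left out 1 polysomal library.

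**Figure D2:**
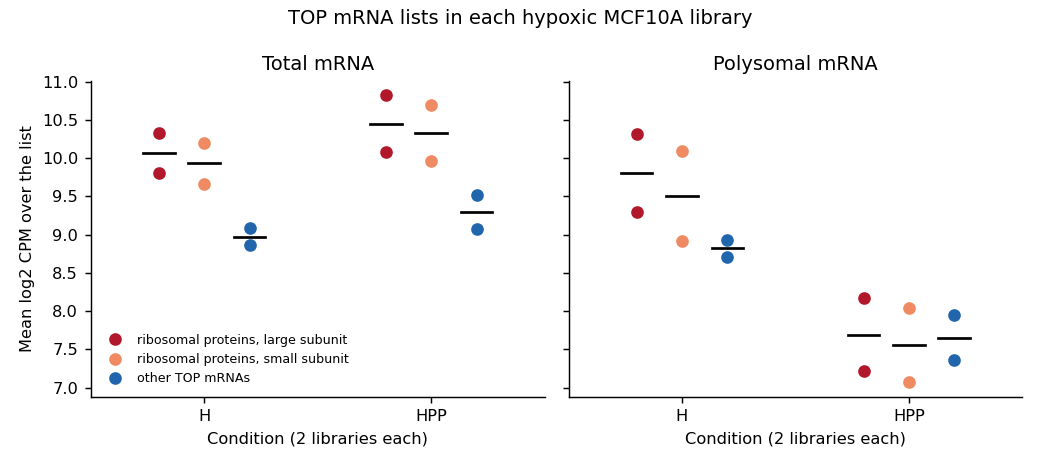
Points are single libraries, with the mean log2 CPM over the members of each TOP list on the y axis, for H and HPP in total mRNA (left) and polysomal mRNA (right), and bars mark the mean of 2 libraries. The polysomal HPP libraries lie below the polysomal H libraries in the 3 lists, while the total libraries overlap.

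Among the 35 other TOP mRNAs, which encode elongation and initiation factors and a few further proteins, the median log2FC was 0.40 in T and -1.16 in P, and 7 genes fell in P, beside 3.87% of all tested genes. The T median was -0.028 without the second HPP_T library and 0.714 without the second H_T library. EEF1A1, which brings aminoacyl-tRNA to the ribosome and was the most abundant mRNA of the list, had 9257 and 9346 CPM in H_P against 3581 and 1947 CPM in HPP_P, with log2FC of -1.75 ± 0.47 (edgeR adjusted p = 0.0458). Its total level was 13190 and 19540 CPM in H and 14020 and 28220 CPM in HPP. NPM1, a nucleolar chaperone, was lower in polysomes (2356 and 2013 CPM against 1082 and 808 CPM, log2FC -1.21 ± 0.29, edgeR adjusted p = 0.0324) and had 1503 and 1781 CPM in H_T against 2243 and 2597 CPM in HPP_T. CCNI, an atypical cyclin, had 305 and 252 CPM against 138 and 123 CPM in P (log2FC -1.09 ± 0.22, edgeR adjusted p = 0.0157), and its total libraries were higher in HPP than in H (291 and 309 against 455 and 424 CPM). The translation initiation factor subunit EIF2S3, the poly(A)-binding protein PABPC4, the histone chaperone NAP1L1 and YBX1, an mRNA-binding protein, were the other genes that fell. The elongation factor EEF2 (log2FC in P -0.96 ± 0.52, edgeR adjusted p = 0.331) and the TOP mRNA TPT1 (-1.84 ± 0.59, adjusted p = 0.0908) did not pass. Leaving out 1 polysomal library at a time, between 0 and 3 genes of the list were called.

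Among genes at 5 CPM or more, the 10 with the smallest unadjusted p for lower Te were CCNI, MTHFD2, PCBP2, CTD-2116N17.1, NSA2, OLA1, RPL21, RPL22L1, RPL26 and NPM1. MTHFD2, a mitochondrial enzyme of folate metabolism, was the most even of them, with 98.8 and 99.5 CPM in H_T, 98.2 and 102.8 CPM in HPP_T, 131 and 119 CPM in H_P and 53.2 and 45.6 CPM in HPP_P. Its log2FC was 0.02 ± 0.18 in T and -1.34 ± 0.19 in P (edgeR adjusted p = 0.00307), a Te difference of -1.36 ± 0.26 (unadjusted p = 0.000238). PCBP2, an RNA-binding protein, had a Te difference of -1.87 ± 0.36, with log2FC of 0.64 in T and -1.23 in P. The GTPase OLA1 (-1.58 ± 0.35) and the pre-60S factor NSA2 (-2.04 ± 0.44) were alike in having a positive log2FC in T and a negative one in P. The median transcript length was 959 bases for the 248 genes with lower Te at an unadjusted p under 0.05, against 1956 bases over all tested genes. Among genes at 5 CPM or more with higher Te, FUT10, TONSL and PHTF1 had the smallest unadjusted p, and in FUT10 (Te difference 0.77 ± 0.35, edgeR unadjusted p = 0.0486, adjusted p = 1) it was the total level that was lower, with 7.73 and 7.35 CPM in H_T and 4.76 and 3.83 CPM in HPP_T at 4.88 and 5.35 CPM in H_P and 4.80 and 5.12 CPM in HPP_P.

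Nuclear-encoded mitochondrial mRNAs stood below the median of all genes in polysomes too. The 76 mitochondrial ribosomal proteins had a median log2FC of 0.06 in T (-0.116 with library totals only) and -0.61 in P. In P 70 of 76 were negative, beside 6642 of all 13124 tested genes. Only MRPL36 passed the test there (log2FC -2.71 ± 0.49, edgeR adjusted p = 0.00945), a smaller share than the 3.87% of all tested genes that fell. The 76 respiratory chain subunits had medians of 0.19 in T and -0.74 in P, but without the first H_P library the P median was -0.074, and without the second HPP_T library the T median was -0.196. For the mitochondrial ribosomal proteins the same fits gave -0.244 in P and -0.236 in T. Of the respiratory chain subunits, UQCRB and UQCRFS1, both of complex III, and COX5A of complex IV fell in P. These were 3 of 76 genes, a share like that of all tested genes that fell (3.87%). UQCRB had the largest of these falls (log2FC -1.95 ± 0.47, edgeR adjusted p = 0.0322). COX5A had 300 and 150.2 CPM in H_P and 79.67 and 46.48 CPM in HPP_P (log2FC -1.83 ± 0.49, edgeR adjusted p = 0.0467), with 99.32 and 139.2 CPM in H_T and 112.2 and 168.4 CPM in HPP_T, where the groups overlapped. Leaving out 1 polysomal library at a time, between 0 and 1 genes of each list were called.

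Of the 23 genes of cap binding and initiation control, 1 was called in each layer, EIF4E, a share near that of all tested genes in T (3.74%) and below it in P (6.5%). The cap-binding protein is the factor that the 4E-BPs hold back. Its mRNA had 84.0 and 80.6 CPM in H_T, 31.9 and 25.5 CPM in HPP_T, 108.6 and 92.0 CPM in H_P, and 36.1 and 26.5 CPM in HPP_P. The libraries of each group were close and the groups were apart in both layers, with log2FC of -1.52 ± 0.25 (edgeR adjusted p = 0.00726) in T and -1.68 ± 0.25 (adjusted p = 0.00411) in P. EIF4EBP1, which encodes 4E-BP1, had log2FC of -0.04 ± 0.67 in T and -1.31 ± 0.69 in P (edgeR adjusted p = 0.993 and 0.309), and EIF4G1, the scaffold of the cap complex, had -0.83 ± 0.31 and -0.32 ± 0.31 (adjusted p = 0.196 and 0.619). The EIF4E call was lost in T without either H_T library or the second HPP_T library, and in P without the second HPP_P library.

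Ribosome biogenesis genes, most of which are not TOP mRNAs, include the assembly factors of both subunits. Of 57 genes, 9 fell and 0 rose in T and 10 fell and 0 rose in P, beside 2.42% and 3.87% of all tested genes that fell, and the medians were -0.51 and -0.47. RRS1, an assembly factor of the large subunit, had 33.8 and 37.5 CPM in H_T and 4.51 and 4.10 CPM in HPP_T, and 64.6 and 51.6 CPM in H_P and 4.39 and 4.76 CPM in HPP_P. This was a log2FC of -3.05 ± 0.29 in T (edgeR adjusted p = 0.000452) and -3.67 ± 0.29 in P (adjusted p = 0.000179), the largest fall of the list. The small-subunit assembly factors LTV1 (log2FC -2.13 in T and -2.08 in P) and PNO1 (-1.57 and -1.96), the rRNA methyltransferase NOP2 (-1.75 and -1.59), NIP7 (-1.34 and -1.52), the RNA polymerase I factor UBTF (-1.63 and -1.41) and the pseudouridine synthase DKC1 (-1.19 and -1.16) fell in both, as did UTP15. MYBBP1A fell in T, and NOP56 and POLR3G fell in P. Leaving out 1 library of the layer at a time, between 4 and 6 genes of the list were called in T and between 5 and 7 in P.

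ID2 and ID3 had the largest falls of any called list member in both layers. ID proteins are inhibitors of basic helix-loop-helix transcription factors and are classic targets of BMP signalling through SMAD1. ID2 had 55.3 and 80.5 CPM in H_T against 3.40 and 4.80 CPM in HPP_T, and 96.4 and 67.3 CPM in H_P against 4.44 and 4.22 CPM in HPP_P (log2FC -4.05 ± 0.38 and -4.24 ± 0.38, edgeR adjusted p = 0.000452 and 0.000282). ID3 fell from 128 and 175 CPM to 9.61 and 12.4 CPM in T and from 282 and 181 CPM to 15.5 and 12.4 CPM in P (log2FC -3.78 and -4.06). ID1, the most abundant of them, fell from 366 and 429 CPM to 45.3 and 57.5 CPM in T and from 850 and 523 CPM to 62.2 and 56.1 CPM in P (log2FC -2.95 and -3.54). The Te differences did not exceed their standard errors (ID2 -0.19 ± 0.48, ID3 -0.27 ± 0.51, ID1 -0.58 ± 0.63), so none was detectable with this spread.

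Inhibitors within the same pathway fell with the ID genes. The inhibitory SMAD6 went from 9.40 and 8.02 CPM to 0.649 and 0.772 CPM in T and from 10.2 and 9.60 CPM to 0.805 and 0.992 CPM in P (log2FC -3.61 ± 0.27 and -3.45 ± 0.26, edgeR adjusted p = 0.000247 and 0.000155). SMAD7 (log2FC -1.79 in T and -1.33 in P), the secreted BMP antagonist NOG (-2.39 and -2.25) and the BMP transducer SMAD1 (-2.75 and -2.02) fell in both layers. FST, an activin antagonist, rose in P only by the test (log2FC 3.64 ± 0.59, edgeR adjusted p = 0.00604), with 2.06 ± 0.56 in T (adjusted p = 0.0664). In all, 7 of the 32 genes of the list fell in T and 7 in P, where 1 rose, beside 3.74% and 6.5% of all tested genes called, and 4 to 6 and 5 to 7 were called without 1 library of the layer at a time. The remaining 24 in P were spread around 0, and the list median was -0.45 in T and -0.13 in P (0.031 without the second H_P library).

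**Figure D3:**
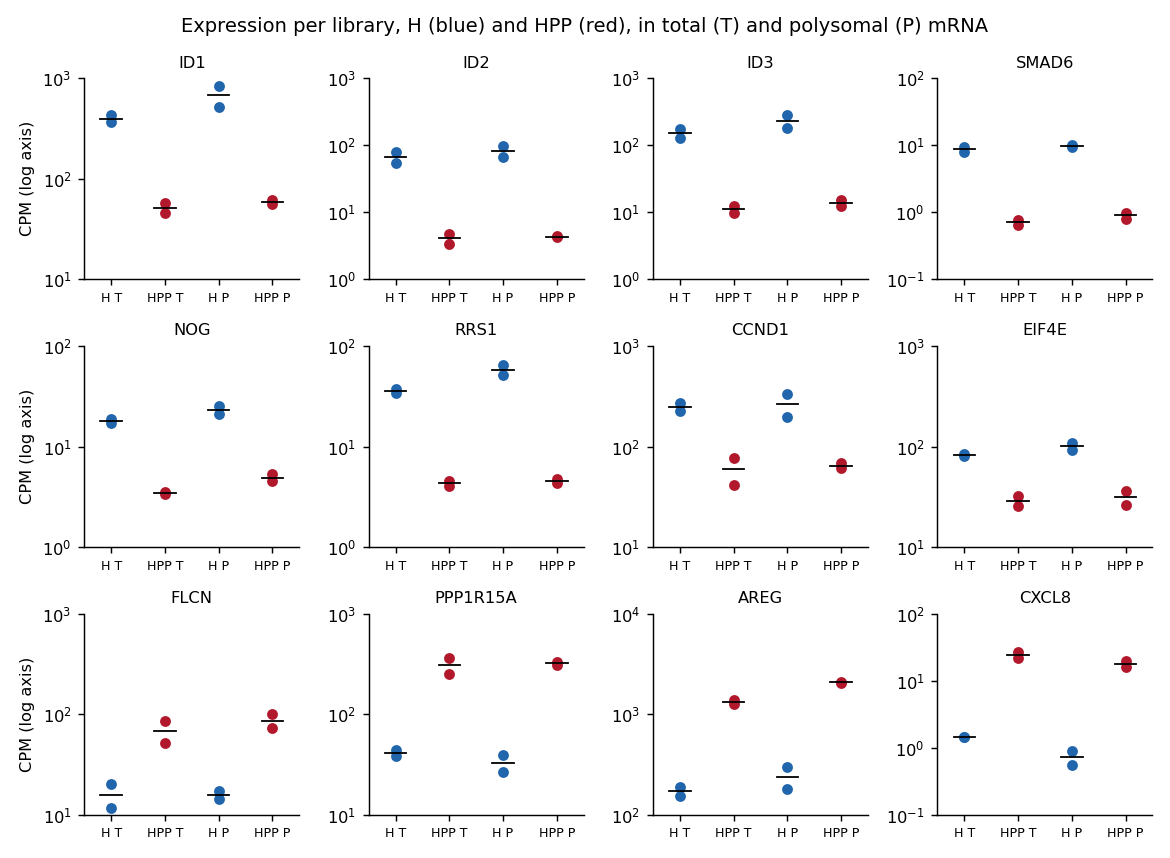
CPM per library on log axes for 12 genes, in the order H_T, HPP_T, H_P and HPP_P, with 2 libraries per group (blue H, red HPP) and a bar at their mean. The ID genes, SMAD6, NOG, RRS1, CCND1 and EIF4E are lower, and FLCN, PPP1R15A, AREG and CXCL8 higher, in both HPP libraries of each layer.

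HOXC8, a homeobox gene, had 7.45 and 5.14 CPM in H_T and 0.371 and 0.201 CPM in HPP_T (log2FC -4.44 ± 0.51, edgeR adjusted p = 0.00122), and -3.87 ± 0.47 in P. DLX1 and DLX2, a neighbouring homeobox pair, had log2FC of -3.06 and -3.74 in T and -2.67 and -3.07 in P. APLN, which encodes the peptide apelin, had 7.29 and 8.48 CPM in H_T and 0.772 and 1.01 CPM in HPP_T (log2FC -3.15 ± 0.36, edgeR adjusted p = 0.00126). The transcriptional regulators BEND3 and MDFI, an inhibitor of myogenic factors, and the adaptor subunit gene AP5B1 made up the rest of the 10 largest falls in T with ID2, ID3 and SMAD6. In P the corresponding 10 were ID2, ID3, HOXC8, RRS1, ID1, AUNIP, RPL22L1, AEN, SMAD6 and BEND3. AEN, a nuclease of the p53 response, had 22.7 and 21.2 CPM in H_T, 2.38 and 2.99 CPM in HPP_T, 23.2 and 21.6 CPM in H_P and 1.80 and 2.23 CPM in HPP_P.

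CXCL8 and AREG were among the 10 largest rises in both layers. CXCL8, the neutrophil chemokine interleukin-8, had 1.48 and 1.48 CPM in H_T, 26.9 and 22.3 CPM in HPP_T, 0.901 and 0.559 CPM in H_P and 20.0 and 16.1 CPM in HPP_P (log2FC 4.06 ± 0.36 and 4.64 ± 0.38, edgeR adjusted p = 0.000386 and 0.000179). AREG, which encodes the EGF receptor ligand amphiregulin, was far more abundant, with 189 and 153 CPM in H_T, 1262 and 1401 CPM in HPP_T, 301 and 180 CPM in H_P and 2077 and 2107 CPM in HPP_P (log2FC 2.96 ± 0.32 and 3.12 ± 0.33, edgeR adjusted p = 0.00102 and 0.000558). IL24, a cytokine of the interleukin-10 family, had the largest rise by rule but uneven libraries (edgeR adjusted p = 0.0361 in T and 0.0232 in P). It had 0.469 and 0.615 CPM in H_T against 4.23 and 24.0 CPM in HPP_T. In polysomes it had 0.638 and 0.112 CPM in H_P against 2.47 and 22.4 CPM in HPP_P. Its log2FC in T was 4.70 with all libraries and 2.89 without the second HPP_T library. In the orphan receptor gene NR4A1 the second HPP library was likewise the higher by far (10.3 and 48.5 CPM in HPP_T, 3.56 and 2.95 CPM in H_T). The other genes among the largest rises included the adaptor GRB7 (log2FC 3.24 in T and 3.61 in P), the oxidative stress gene OSGIN1 (3.26 and 3.41), the cell cycle regulator RGCC (3.58 and 3.44), the repressor HES2 (3.07 and 3.26) and, in T, the kinase TESK2 (2.95).

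By list, 5 of 35 immediate early genes and ERK feedback genes rose and 1 fell in T, and 11 rose and 2 fell in P, with medians of 0.84 and 1.08, beside 1.33% and 2.63% of all tested genes that rose. Without the second HPP_P library the P median was 0.679. The ERK phosphatase DUSP6 (log2FC 1.17 in T and 1.51 in P), DUSP5 (2.17 and 2.02), the receptor tyrosine kinase antagonist SPRY2 (1.34 and 1.56) and the EGF receptor ligand HBEGF (1.91 and 1.89) rose in both. FOS rose in P (2.17 ± 0.49, edgeR adjusted p = 0.0239), while JUN, the partner of FOS in AP-1, fell in both, from 306 and 332 CPM to 70.8 and 82.3 CPM in T (log2FC -2.06 ± 0.29, edgeR adjusted p = 0.00344). Of 20 cytokine and prostaglandin genes 4 rose in T and 5 in P, with 0 falls, and without 1 library of the layer at a time 1 to 3 and 3 to 4 were called. Beside CXCL8 and IL24 these were CSF3, a granulocyte growth factor (51.2 and 38.3 CPM in H_T, 188 and 165 CPM in HPP_T), IL11 (log2FC 1.77 in T and 1.83 in P) and, in P, the adhesion molecule ICAM1. Without 1 library of the layer at a time, between 2 and 3 immediate early genes were called in T and between 4 and 10 in P.

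Of the stress pathway downstream of ATF4, the members moved in both directions. PPP1R15A, the phosphatase subunit that reverses eIF2α phosphorylation, rose from 38.2 and 43.9 CPM to 250 and 366 CPM in T and from 39.6 and 26.7 CPM to 313 and 331 CPM in P (log2FC 2.91 ± 0.32 and 3.28 ± 0.33, edgeR adjusted p = 0.00107 and 0.000455). DDIT3, the transcription factor CHOP, rose from 8.77 and 11.5 CPM to 58.4 and 100 CPM in T (log2FC 2.97 ± 0.53, edgeR adjusted p = 0.0104). GDF15, a stress-induced hormone, rose in P, where its second HPP library (25.2 CPM) was well above its first (4.80 CPM). CEBPG, a partner of ATF4, fell in both layers (log2FC -1.80 and -2.05), and the glutathione-degrading enzyme CHAC1 and MTHFD2 fell in P. ATF4 itself was not called (log2FC 0.89 ± 0.56 in T and 0.18 ± 0.55 in P, edgeR adjusted p = 0.516 and 0.897). The 37 genes thus gave 2 rises and 1 fall in T and 3 rises and 3 falls in P, beside 3.74% and 6.5% of all tested genes called, with medians of 0.07 and 0.03, and without 1 library of the layer at a time 1 to 3 were called in T and 3 to 6 in P, while 0 of 20 cytosolic tRNA synthetases, many of them ATF4 targets, passed in either layer.

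Within the mTOR pathway, FLCN and RRAGC rose. Both belong to the amino acid sensing arm on the lysosome, where folliculin acts on the RagC GTPase. FLCN had 20.2 and 11.7 CPM in H_T, 85.6 and 52.3 CPM in HPP_T, 14.3 and 17.1 CPM in H_P and 73.0 and 100 CPM in HPP_P (log2FC 2.11 ± 0.37 and 2.46 ± 0.37, edgeR adjusted p = 0.00916 and 0.00443). RRAGC had log2FC of 1.30 ± 0.21 and 1.45 ± 0.21 (edgeR adjusted p = 0.00717 and 0.00393). SESN1, a leucine sensor, fell in T (-1.01 ± 0.24, edgeR adjusted p = 0.0423), and MTOR itself was not called (-0.57 ± 0.37 in T and -0.20 ± 0.37 in P, adjusted p = 0.541 and 0.82). These were the called genes among 40, 3 in T and 2 in P, beside 3.74% and 6.5% of all tested genes, and the median of the list was -0.04 in T and -0.22 in P. Without 1 library of the layer at a time, 0 or 1 genes were called in T and 1 or 2 in P, and the P median was 0.037 without the first H_P library. In the list of receptor tyrosine kinases and insulin receptor substrates the ephrin receptor EPHA2 rose (log2FC 1.67 in T and 1.98 in P), and the insulin receptor adaptor GRB10 (-1.54 and -1.29) and the PI3 kinase subunit PIK3R3 (-2.47 and -1.96) fell, out of 24 genes, beside 3.74% and 6.5% of all tested genes called, and 0 to 2 were called in each layer without 1 of its libraries. IRS1 and IRS2 were not called.

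Targets of the FOXO factors, which AKT restrains, were mostly above 0. Of 27 genes 4 rose and 1 fell in T and 5 rose in P, beside 3.74% and 6.5% of all tested genes called. A positive log2FC was seen in 22 and 25 of them, beside 49.7% and 49.4% of all tested genes, with medians of 0.69 and 0.68, and the P median was 1.156 without the second H_P library. TXNIP, an arrestin-like inhibitor of glucose uptake, had 518 and 460 CPM in H_T, 1536 and 1856 CPM in HPP_T, 351 and 538 CPM in H_P and 1414 and 2901 CPM in HPP_P (log2FC 1.79 ± 0.38 and 2.28 ± 0.38, edgeR adjusted p = 0.0222 and 0.00688). The repressor BCL6 (log2FC 1.50 in T and 1.91 in P) and the pseudokinase TRIB1 (1.48 and 2.03) rose in both. GADD45A, a growth arrest gene, rose in T, and the atypical cyclin CCNG2 and KLF6 rose in P. The fall in T was SESN1. Leaving out single libraries of the layer, between 0 and 1 genes of this list were called in T and between 0 and 5 in P. Of 47 lysosome and autophagy genes, the ATG8 family member GABARAPL1 rose in both layers (log2FC 1.59 and 1.50), and the cargo receptor SQSTM1 (1.57 ± 0.30) and the proton pump subunit ATP6V1B2 (1.46 ± 0.27) rose in P. These 1 and 3 calls are no larger a share of the list than the 3.74% and 6.5% of all tested genes, and 0 to 1 and 0 to 4 were called without 1 library of the layer.

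Of 19 G1 cyclins, CDK inhibitors and their regulators, 4 fell in each layer and 1 rose in P, beside 2.42% and 3.87% of all tested genes that fell. The medians were -0.29 in T and -0.35 in P, but -0.103 in T without the first H_T library and -0.017 in P without the first H_P library. CCND1, cyclin D1, had 275 and 225 CPM in H_T, 76.8 and 41.7 CPM in HPP_T, 197 and 336 CPM in H_P and 61.1 and 68.5 CPM in HPP_P (log2FC -2.08 ± 0.43 and -2.04 ± 0.43, edgeR adjusted p = 0.0203 and 0.018). The phosphatase CDC25A (log2FC -2.72 in T and -2.76 in P), cyclin E1, CCNE1 (-1.62 and -1.88), and E2F2 (-1.97 and -1.79) also fell in both, and the CDK inhibitor CDKN1A rose in P (1.10 ± 0.29, edgeR adjusted p = 0.044). MYC, a driver of ribosome biogenesis genes, rose, with 167 and 175 CPM in H_T, 353 and 446 CPM in HPP_T, 158 and 194 CPM in H_P and 360 and 568 CPM in HPP_P (log2FC 1.23 ± 0.29 and 1.40 ± 0.29, edgeR adjusted p = 0.0361 and 0.016). Of 42 DNA replication genes 3 fell and 1 rose in T and 5 fell in P (2.42% and 3.87% of all tested genes fell), the licensing factors CDC6 (-1.46 and -1.66) and MCM10 (-2.19 and -1.73) and the flap nuclease FEN1 (-1.44 and -1.23) in both. Of 31 mitotic genes the phosphatase CDC25C rose in both (1.33 and 1.17) and the kinesin KIF20A in P, with 0 falls. These calls stood beside 1.33% and 2.63% of all tested genes that rose, and fewer were called in P without any 1 polysomal library. The log2FC were positive in 25 of 31 in T and 27 of 31 in P, beside 49.7% and 49.4% of all tested genes. Their medians were 0.341 in T and 0.555 in P, and as low as 0.048 and 0.385 without 1 library of the layer. Without 1 library of the layer at a time, between 1 and 2 G1 genes were called in T and between 2 and 4 in P, and the T calls of MYC and CDC25C were lost each time. Of the DNA replication genes 1 to 3 were called in T and 1 to 2 in P in those fits.

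**Figure D4:**
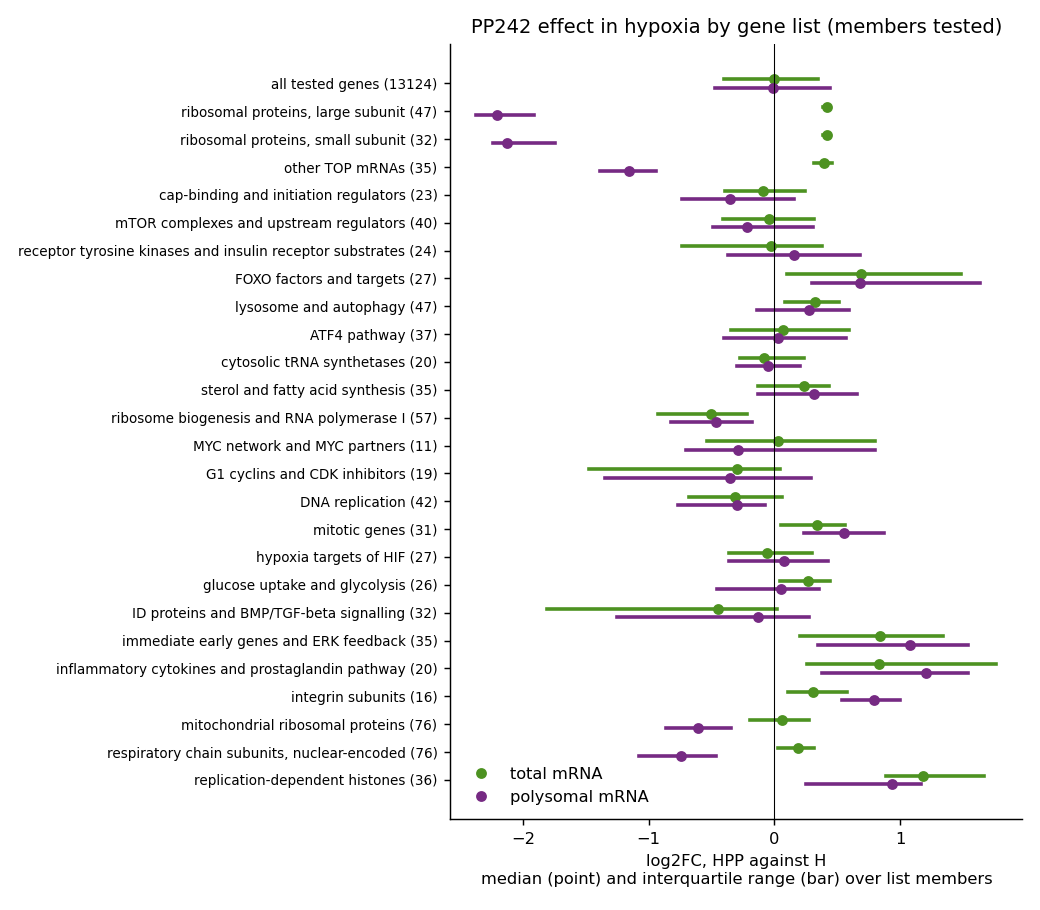
For each gene list, with the number of members tested in brackets, the point is the median log2FC of HPP against H and the bar the interquartile range over members, in total (green) and polysomal (purple) mRNA. The TOP lists and the mitochondrial lists have a lower median in polysomal than in total mRNA, and the ribosome biogenesis list is below 0 in both.

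Of 27 HIF targets, 1 was called in each layer, a share of the list close to that of all tested genes in T (3.74%) and below that in P (6.5%). It was EGLN3, the oxygen-sensing prolyl hydroxylase PHD3, with 13.1 and 17.6 CPM in H_T, 3.74 and 3.36 CPM in HPP_T, 19.5 and 21.8 CPM in H_P and 5.69 and 5.66 CPM in HPP_P (log2FC -2.11 ± 0.41 and -1.86 ± 0.41, edgeR adjusted p = 0.0163 and 0.0217), and the call was lost in each layer without any 1 of its 4 libraries. The carbonic anhydrase CA9 had 522 and 658 CPM in H_T and 569 and 829 CPM in HPP_T, and the angiogenic factor VEGFA 228.8 and 103.3 CPM and 108.9 and 43.4 CPM in the same groups, and neither was called. The medians of the list were -0.06 in T and 0.08 in P. Among 26 glucose uptake and glycolysis genes the glucose transporter SLC2A3 was the 1 called gene in each layer, again no larger a share than that of all tested genes in P, and rose from 8.93 and 7.52 CPM to 43.1 and 32.5 CPM in T (log2FC 2.20 ± 0.27 and 2.82 ± 0.28, edgeR adjusted p = 0.00183 and 0.00045), while SLC2A1 was not called (0.46 ± 0.28 and 0.93 ± 0.28).

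Integrin subunits, receptors for the extracellular matrix, gave 0 of 16 calls in T, P and Te by edgeR. Of all tested genes 3.74%, 6.5% and 0% were called there. The log2FC of the integrins were positive in 14 of 16 in T and 16 of 16 in P, beside 49.7% and 49.4% of all tested genes. Their medians were 0.31 and 0.80. The T median was -0.004 without the first HPP_T library, and the P median lay between 0.49 and 1.134 without 1 polysomal library at a time. ITGB3 had 11.0 and 8.21 CPM in H_T, 13.7 and 6.78 CPM in HPP_T, 4.06 and 12.5 CPM in H_P and 7.88 and 15.0 CPM in HPP_P. The groups overlapped in both layers and the Te difference was 0.37 ± 1.196 (unadjusted p = 0.763), a difference not detectable with this spread. ITGB4, which anchors epithelial cells to laminin, had 519 and 520 CPM in H_T and 995 and 1066 CPM in HPP_T (log2FC 0.99 ± 0.31, edgeR adjusted p = 0.114), and ITGA5 had 742 and 924 CPM and 1248 and 1660 CPM (0.80 ± 0.34, adjusted p = 0.273). Of the 11 basal epithelial markers tested, the laminin chain LAMB3 rose in both layers (log2FC 1.43 in T and 2.01 in P) and CD44 in T. Of all tested genes 1.33% rose in T and 2.63% in P. Both T calls of these markers were lost without any 1 of the 4 T libraries. The 36 replication-dependent histone genes had medians of 1.18 in T and 0.94 in P with 0 calls, and their mRNAs lack poly(A) tails. The second HPP library carried these values, with a summed 1472 CPM in T and 1378 CPM in P against 399 and 636 CPM in the first, and without it the medians were 0.105 in T and 0.082 in P.

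The same drug was given in normoxia, and whether its effect differed there was tested directly. No gene passed (0% in T and 0% in P by edgeR), with 230 and 356 genes at an unadjusted p under 0.05 and smallest adjusted p of 0.399 and 0.885, and DESeq2 called 6 and 19. For the TOP lists the effects in P lay side by side, with medians of -2.20 in hypoxia and -1.89 in normoxia for the large subunit and -2.13 and -1.82 for the small subunit, and 0 of these genes were called in normoxia, where 62 of 13124 genes rose and 46 fell in P in all, against 345 and 508 in hypoxia. GJB2, a gap junction protein, had the smallest p in both layers. It had 50.5 and 71.5 CPM in H_T and 33.7 and 39.5 CPM in HPP_T, but 4.20 and 3.48 CPM in N_T and 12.9 and 11.8 CPM in NPP_T, a difference between the log2FC of -2.42 (adjusted p = 0.399). TNFSF9, a ligand of the tumour necrosis factor family, had 2.41 and 2.71 CPM and 6.86 and 14.5 CPM in hypoxia, where the groups were apart, and 6.01 and 5.54 CPM and 3.31 and 5.82 CPM in normoxia, where they overlapped. CDKN1A had log2FC of 1.10 in hypoxia and -0.60 in normoxia in P (difference 1.70, edgeR adjusted p = 1). The log2FC of CXCL8 in T was 4.06 in hypoxia and 1.90 in normoxia, from N_T levels of 6.48 and 4.45 CPM.

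**Figure D5:**
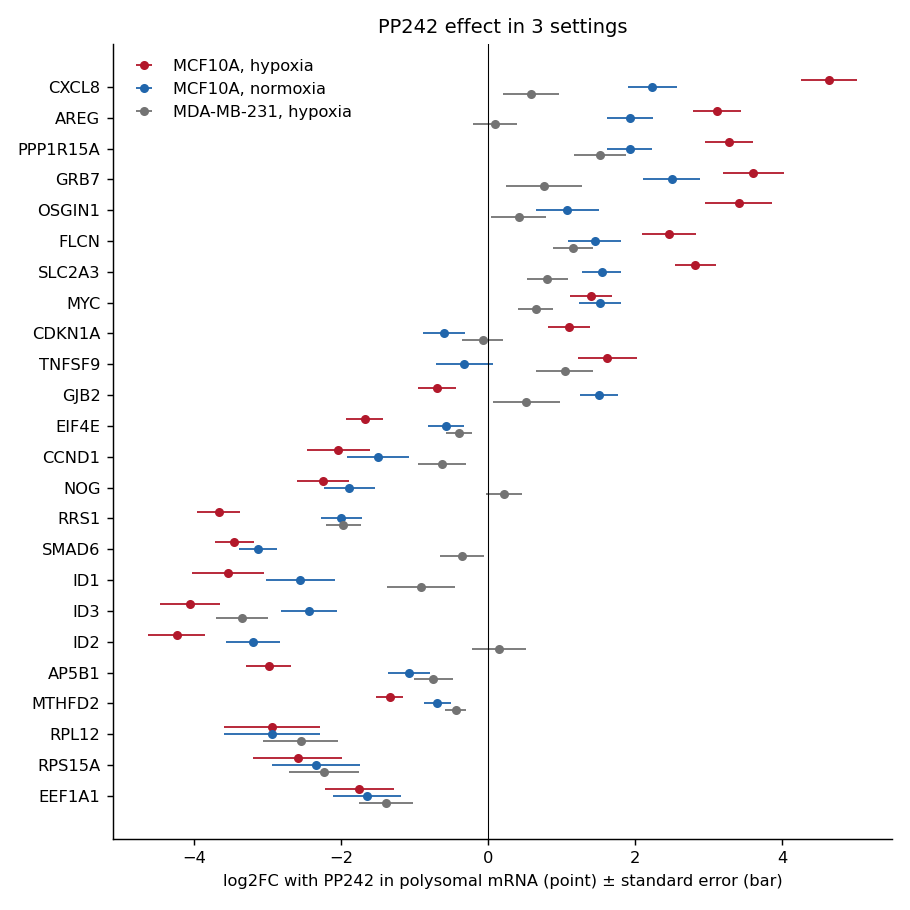
log2FC with PP242 in polysomal mRNA (point) and its standard error (bar) for 24 genes in MCF10A in hypoxia (red), MCF10A in normoxia (blue) and MDA-MB-231 in hypoxia (grey). RPL12, RPS15A and EEF1A1 at the bottom are negative in the 3 settings, and ID2 is near 0 in MDA-MB-231 and -4.24 in hypoxic MCF10A cells.

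Between the cell lines the effect of PP242 in hypoxia differed for 75 of 12374 genes in T (0.606%) and for 99 in P (0.8%), by edgeR with Benjamini-Hochberg adjustment over a joint fit. Of 31 ID and BMP genes in that fit, 3 differed in each layer. The log2FC of ID2 was 3.84 lower in T and 4.35 lower in P in MCF10A than in MDA-MB-231 (adjusted p = 0.000836 and 0.000331), where ID2 had only 1.24 and 1.45 CPM in H_T and 1.57 and 0.846 CPM in HPP_T. SMAD6 (difference -3.14 in T and -3.06 in P) and NOG (-2.30 and -2.43) differed in the same direction, although NOG had 214 and 231 CPM in H_T of MDA-MB-231. ID3 fell in that line as well (log2FC -2.29 in T and -3.35 in P), and its difference was not called (adjusted p = 0.193 and 0.78). EIF4E differed in P, by -1.26 ± 0.25 (adjusted p = 0.0198), and RRS1 by -1.67 ± 0.32 (adjusted p = 0.0169), with a fall in both lines. For the large and small subunit the medians in P in MDA-MB-231 were -1.74 and -1.95, with 19 of 47 and 17 of 32 genes called. The 35 other TOP mRNAs had a median of -0.685 there, with 1 called. In that line 64 of 12374 genes fell and 55 rose in P in all. RPL12 differed between the lines by -0.37 ± 0.68 (adjusted p = 1).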

How the data were processed

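Per the study's methods, the authors aligned paired-end reads to GRCh38 with STAR and estimated gene counts with RSEM, while the submitters' processing notes name GRCh37. The deposited values are expected counts, already rounded to whole numbers, for 60554 genes. Polysomal mRNA was pooled from a sucrose gradient before sequencing, so how many ribosomes an mRNA carried is not resolved. Totals over all 32 libraries ran from 18340916 to 46032327 counts.

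The 16 MCF10A libraries were fitted together in 8 groups with edgeR 4.0.16 (R 4.3.3) on protein-coding genes kept by filterByExpr, with TMM scaling and the quasi-likelihood test at a Benjamini-Hochberg adjusted p under 0.05. Te was the interaction of drug and fraction. The cell lines were compared in a joint fit of the libraries of both lines. CPM values carry the TMM factors and are shares of a library. DESeq2 1.42.0 was an alternative, and the scripts were tested on simulated data. The labels call the libraries biological replicates. Genes named outside the lists were, per layer, the 10 called genes with the largest rise and the 10 with the largest fall. They had a mean of 5 CPM or more in H or HPP, without overlap of H and HPP. Some reached 5 CPM in T in H only, such as HOXC8, SMAD6 and APLN. For Te the 10 with the smallest p in each direction at that level were named, and for differences between effects the 5 in each direction. The gene lists and comparisons were chosen with earlier results of these data known. TOP-like starts were read from RefSeq promoters. Results for a few genes are not reported here.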

Additional observations from a re-analysis of the deposited data

Results flagged for a closer look

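The effect of PP242 in hypoxia differed between MCF10A and MDA-MB-231, by the test of the difference itself in edgeR with Benjamini-Hochberg adjustment, for 75 genes in total mRNA and 99 in polysomal mRNA. The values below are log2 differences between the effects, MCF10A minus MDA-MB-231, for the 5 genes with the smallest p in each direction and layer.

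In total mRNA the effect was higher in MCF10A for AREG (3.06), CXCL8 (3.75), the transcription factor gene MAFF (1.62), ATRNL1 (2.73) and CD55 (2.38), a complement regulator. It was lower for ID2 (-3.84), the arginine methyltransferase PRMT6 (-2.2), ZADH2 (-2.01), AP5B1 (-2.89) and APLN (-2.68). AREG had 31.2 and 35.0 CPM in H_T and 38.1 and 27.2 CPM in HPP_T of MDA-MB-231, where its log2FC was -0.02 ± 0.30.

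In polysomal mRNA the effect was higher in MCF10A for AREG (3.07), CXCL8 (4.09), the phosphatase PTPRE (2.84), OSGIN1 (3.04) and FAM46C (4.07), and lower for ID2 (-4.35), ZADH2 (-2.09), PRMT6 (-2.03), LGALSL (-2.12) and NOG (-2.43). CXCL8 had 38.9 and 22.7 CPM in H_P and 54.5 and 38.0 CPM in HPP_P of MDA-MB-231, a starting level far above that of MCF10A. What part the starting level had in these differences was not tested.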

How the results depend on the processing

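The counts of called genes depended on the fit. In total mRNA (491 genes) DESeq2 called 1042, a fit of only the compared libraries 0, and an adjusted p under 0.10 gave 853. In polysomal mRNA (853 genes) the same settings gave 1589, 38 and 1411. For Te (0 genes) DESeq2 called 93 and a z-score limit like that of the study, set here on the difference of log2FC where the study's methods give a ratio, for genes called in polysomal mRNA and with no test of Te itself, marked 110 genes (97 lower). For the difference from normoxia (0 and 0 genes) DESeq2 called 6 in total and 19 in polysomal mRNA. For the difference between cell lines (75 and 99 genes) it called 274 and 329. Leaving out 1 library gave 71 to 462 genes in total mRNA, 131 to 698 in polysomal mRNA, 0 for Te and both differences from normoxia, and 14 to 59 and 16 to 90 for the difference between lines. The lowest counts came without the second HPP library of the layer in both MCF10A comparisons. The highest counts in total and in polysomal mRNA came without a library of the other fraction, which is not among those compared. In both layers each fit without a compared library lost most of the calls. Each also called fewer genes than any fit without a library of the other fraction. A length offset, chosen after seeing the data, gave 754 and 1294 genes. Among list members and genes named by the rule, 245 effects were called in total or polysomal mRNA. None of the 245 reversed in 14 settings, 21 were called in each of them, and 82 were lost in 5 or more. The fit of only the compared libraries called 0 genes in total mRNA, so an effect tested there in total mRNA could not be among the 21.

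The replicate numbers were not shown by the labels to pair H with HPP. The titles do pair total with polysomal libraries by culture, and a replicate block by culture called 0 genes for Te. Deviations of same-numbered libraries correlated at 0.283 to 0.778 among groups of total mRNA (0.688 for H and HPP), at 0.481 for H and HPP in polysomal mRNA, and down to -0.641 across the fractions. With the number as a block 550 and 891 genes were called and, for the difference between lines, 144 and 183. With a block within each fraction 1153 and 1951 were called, and 0 for Te, and 73 of the 79 ribosomal protein genes were called in polysomal mRNA, against 43 without a block. With that block and the length offset the counts were 1575, 2611 and, for Te, 95. The cause of these differences was not tested. No alternative changed the depth, so its part in the calls was not tested.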
